A study of Mus musculus with 6 samples.

Results

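Chromatin accessibility at the cytochrome P450 genes of families 1, 2 and 3 was measured in livers of refed and fasted mice by ATAC-seq, an assay that reads where a transposase can insert into open DNA. A P450 peak was any peak whose nearest annotated gene start belonged to a Cyp1a, Cyp1b, Cyp2 or Cyp3a gene. The rule gave 211 of the 74076 peaks in the deposited table, near 53 genes in 11 chromosomal clusters. There were 3 libraries of refed liver (replicates 5, 7 and 8) and 3 of fasted liver (replicates 1, 3 and 4). Below, each refed or fasted liver stands for 1 library, and n counts libraries. All mice were male C57BL/6J, 8 weeks old. Refed mice had been without food for 12 h from 10 am and were then fed a high-sucrose diet (69% sucrose, 10% fat) for 12 h from 10 pm. Fasted mice had been without food for 12 h from 10 pm, and both groups were killed at 10 am, so the refed mice had also had an earlier fast and a change of diet. Whether each library came from its own animal is not stated in the labels, and p-values then measure only the spread between these libraries.

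Cytochrome P450 enzymes are haem proteins of the endoplasmic reticulum that add oxygen to their substrates, with electrons from the reductase Por. Families 1, 2 and 3 hold most of the enzymes that clear drugs and other foreign chemicals, and several also act on steroids, bile acids, fatty acids and vitamin D. In the liver their genes are read by hepatocytes, many of them strongest around the central vein, and are induced through the receptors AHR, CAR and PXR. Many lie in tandem arrays of close copies, and in mice several are read mainly in one sex, under the pattern of growth hormone release.

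The DNA just before 5 of the gene starts is given here, since the results set changes away from the promoter against promoters that were not called. Each sequence is the 250 bases before the start in RefSeq, build GRCm38.p6, which is not the mm9 build of the peaks, so the windows were not matched to peaks by position. Capitals mark each TATAAA, a core promoter box, and each CG dinucleotide. Cyp2e1 and Cyp2b10 are the genes of the called peaks, Cyp1a2 had the lowest and Cyp2c29 the highest log2 change among promoter peaks, and Cyp2r1 had the most accessible P450 promoter. The windows are chr7:140763569-140763818 on the plus strand, chr7:25897408-25897657 on the plus strand, chr9:57683656-57683905 on the minus strand, chr19:39286835-39287084 on the plus strand and chr7:114562973-114563222 on the minus strand.
Cyp2e1: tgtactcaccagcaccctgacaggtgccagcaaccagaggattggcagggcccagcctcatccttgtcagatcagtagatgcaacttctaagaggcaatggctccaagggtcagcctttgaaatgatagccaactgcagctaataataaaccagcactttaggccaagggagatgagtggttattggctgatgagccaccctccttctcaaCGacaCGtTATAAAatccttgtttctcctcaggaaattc
Cyp2b10: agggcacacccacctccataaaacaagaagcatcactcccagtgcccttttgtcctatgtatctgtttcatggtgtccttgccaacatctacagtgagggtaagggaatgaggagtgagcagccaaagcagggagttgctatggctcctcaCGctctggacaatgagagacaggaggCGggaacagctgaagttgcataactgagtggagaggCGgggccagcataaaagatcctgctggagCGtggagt
Cyp1a2: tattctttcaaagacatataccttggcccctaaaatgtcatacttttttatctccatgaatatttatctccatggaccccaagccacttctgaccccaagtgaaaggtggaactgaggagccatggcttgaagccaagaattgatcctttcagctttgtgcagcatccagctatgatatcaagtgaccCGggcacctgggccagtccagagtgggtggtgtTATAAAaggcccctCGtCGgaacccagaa
Cyp2c29: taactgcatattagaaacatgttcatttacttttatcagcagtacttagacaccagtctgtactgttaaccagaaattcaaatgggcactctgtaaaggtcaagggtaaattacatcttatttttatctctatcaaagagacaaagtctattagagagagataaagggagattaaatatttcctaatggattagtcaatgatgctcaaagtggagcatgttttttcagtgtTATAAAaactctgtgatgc
Cyp2r1: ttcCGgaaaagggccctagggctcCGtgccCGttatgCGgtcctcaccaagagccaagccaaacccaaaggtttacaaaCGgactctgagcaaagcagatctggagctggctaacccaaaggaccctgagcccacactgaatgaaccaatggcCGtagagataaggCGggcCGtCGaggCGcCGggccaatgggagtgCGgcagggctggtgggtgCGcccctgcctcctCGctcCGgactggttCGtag

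Of these 5 windows, 3 hold a TATAAA on the gene's own strand, starting 31 bases before the start of Cyp2e1, 29 before that of Cyp1a2 and 19 before that of Cyp2c29. The Cyp2r1 window holds 16 CG dinucleotides and no TATAAA, against 2 CG dinucleotides in the Cyp2e1 window and 0 in the Cyp2c29 window. In 300-base windows that also take in the first 50 bases of the transcript, 44 P450 genes were matched to a RefSeq promoter. TATAAA on either strand was found in 24 of these 44 (54.5%), against 13.6% of all 32851 RefSeq promoters. On the gene's own strand and before the start it was in 18 (40.9%), against 7.59% of all promoters. Some of these lay far from the start, at 122 bases before it in the close copies Cyp3a41a, Cyp3a41b and Cyp3a44. CAAAGTCCA, a form of the site of the hepatocyte factor HNF4A, was found on either strand in 7 P450 promoters (15.9%), against 0.475% of all promoters. These 7 were Cyp2c67, Cyp2c68, Cyp2c70, Cyp3a11, Cyp3a16, Cyp3a41a and Cyp3a41b, which are close copies in part and so share sequence. GCGTG, the core that AHR binds with its partner ARNT, was found in 7 of 44 (15.9%), against 32.4% of all promoters. TTCNNNGAA, the form bound by STAT5, was in 1 (2.27%), against 8.30%. The direct repeat of the receptor half-site with 4 bases between (DR4), the form that CAR and PXR bind with RXR, was in 0 of 44 in the 2 spellings searched, which only 0.0152% and 0.0122% of all promoters hold. The median ratio of observed to expected CG dinucleotides was 0.127 in P450 promoters and 0.384 in all promoters, and it was above 0.6 in 2 of 44 P450 promoters, those of Cyp1b1 and Cyp2r1, against 35.8% of all promoters.

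The reads in listed peaks numbered 3205634 to 4850613 per library, with a median of 19 to 33 reads per peak. Levels are the authors' RPKM, reads per kilobase of peak, scaled to each library's reads in listed peaks. The hepatocyte marker genes carried 73 peaks at 6 of 7 genes. Limma called 1 of these 73 higher and 3 lower, beside 1.23% of all peaks called either way. Their summed levels were 1599 to 1626 RPKM in refed livers and 1548 to 1678 RPKM in fasted livers. Among markers of other cells, endothelial genes had 31 peaks at 6 of 6 genes, with 1 called higher by limma and summed levels of 456 to 506 RPKM in refed livers and 431 to 490 RPKM in fasted livers. Stellate cell genes had 12 peaks at 4 of 6 genes, Kupffer cell genes 5 at 3 of 6 and lymphocyte genes 8 at 3 of 6. For 3 marker lists the summed levels of the groups did not overlap. Cholangiocyte markers (11 peaks) summed to 192 to 218 RPKM in refed and 164 to 167 RPKM in fasted livers, and pericentral hepatocyte markers other than P450 genes (39 peaks) to 872 to 940 RPKM in refed and 837 to 853 RPKM in fasted livers. Lymphocyte markers (8 peaks) summed to 103 to 113 RPKM in refed and 126 to 135 RPKM in fasted livers. None of the peaks in these 3 lists was called by limma, and their part in the P450 results was not tested.

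P450 peaks were less accessible than the peaks of the table as a whole. Their median level over all 6 libraries was 12.2 RPKM, against 15.7 RPKM for all peaks, and 66 of 211 had a mean under 10 reads. Of the 211, 123 were intergenic (58.3%, against 43.2% of all peaks), and 84 (39.8%, against 26.5%) lay in an annotated repeat. At 6 P450 peaks (2.84%, against 5.04% of all peaks) no library had a read. Such a peak is listed with the value of 0.9 reads and so carries a log2 change of 0.00 that is not a measurement. RefSeq lists 59 protein-coding genes with a matching symbol, and 9 of these had no peak under that symbol, among them Cyp2c40, Cyp2c54, Cyp2c65 and Cyp2c69. Cyp2c23 is also counted there, but is the newer symbol of Cyp2c44, which had 4 peaks.

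The share of P450 peaks called by limma was near that of all peaks (1.42% against 1.23%), and those called were all lower in refed livers. With p-values adjusted over all 74076 peaks, 3 P450 peaks fell and 0 rose, against backgrounds of 0.427% of all peaks called lower, 0.802% called higher and 1.23% called either way. The 3 peaks were an intron and the 3′ end of Cyp2e1 and a site upstream of Cyp2b10. At an unadjusted p under 0.05 there were 38 P450 peaks (20 higher, 18 lower), or 18.0%, against 14.5% of all peaks. The refed and fasted values did not overlap at 44 P450 peaks (20.9%), against 19.0% in the whole table. Refed values were the higher at 23 of these and the lower at 21, against backgrounds of 10.5% and 8.57%. The edgeR quasi-likelihood test on recovered reads could test 151 P450 peaks and called 4 higher and 7 lower, or 7.28%. Of all tested peaks it called 2.58% higher, 1.43% lower and 4.01% either way. DESeq2 called 1 higher and 5 lower, and its share over all peaks is not given here, so this count has no background beside it. The authors' deposited table holds 13 P450 peaks that passed edgeR, 6 higher and 7 lower, and holds 2.81% of all peaks as higher and 1.66% as lower (4.47% in total). In bulk tissue, fewer cells with an open site and less open sites in each cell cannot be told apart.

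The family as a whole did not move one way. The median log2 change over the 211 peaks was 0.01, against 0.00 over all peaks, with 118 above 0 and 93 below. The 118 include the 6 peaks with no read in any library, so 112 of the 205 peaks with reads were above 0. P450 peaks took 0.138% ± 0.0131 of the reads in peaks in refed livers and 0.140% ± 0.00756 in fasted livers (SD, n = 3 each; two-sided exact permutation p = 0.8, where the smallest p that 3 against 3 allows is 0.1). By subfamily the median ran from -0.62 over the 2 Cyp2t4 peaks and -0.54 over the 7 Cyp2e1 peaks to 0.16 over the 6 Cyp2f2 peaks and 0.23 over the 42 Cyp3a peaks. Both ends of this order moved with the setting. Across the alternatives the Cyp2t4 median ran from -0.87 to -0.31 and the Cyp2e1 median from -0.78 to -0.34. The lower of the Cyp2t4 peaks averaged only 3.12 RPKM. The higher end moved with single libraries and with the low peaks. The Cyp3a median was 0.00 without refed replicate 7 and 0.01 without fasted replicate 4, and it was -0.09 over peaks above the first quartile of mean level and -0.08 over the peaks that edgeR tested. The Cyp2f2 median was -0.01 without refed replicate 7 and -0.04 without fasted replicate 4.

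**Figure D1:**
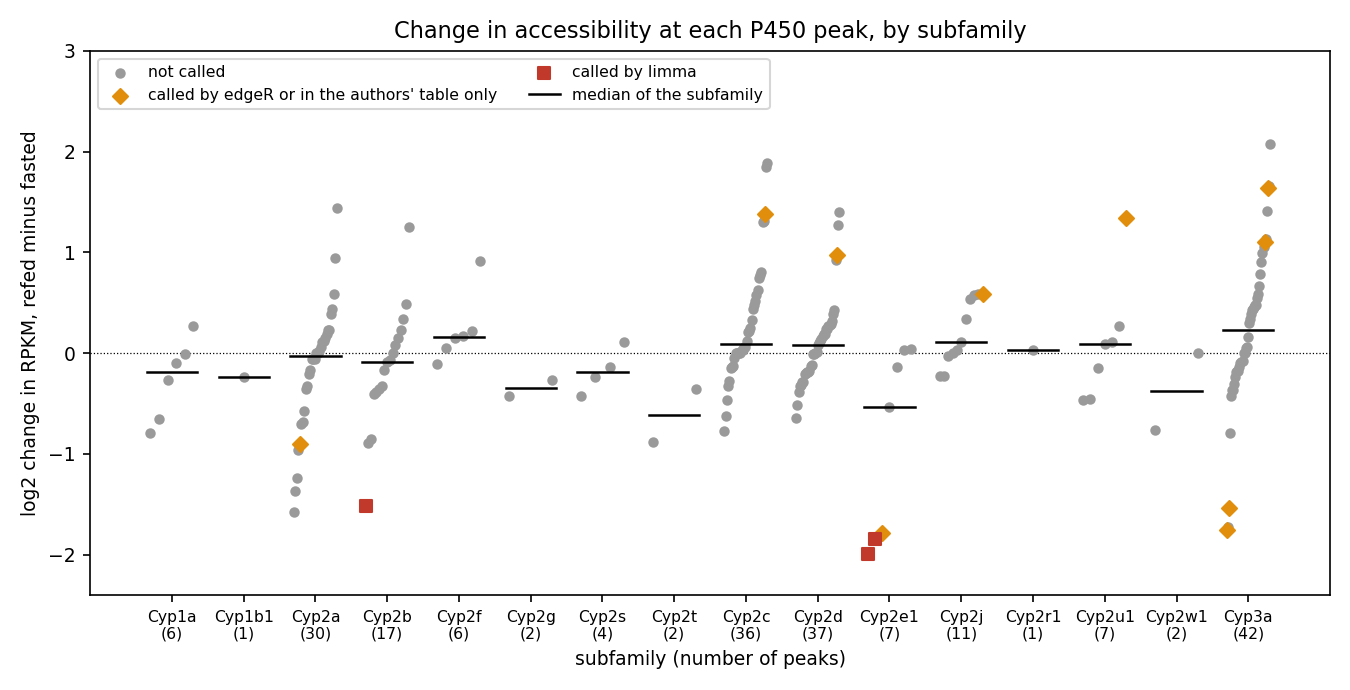
Log2 change in RPKM, refed minus fasted, at each of the 211 P450 peaks (points), by subfamily on the horizontal axis, with the subfamily's median as a bar. The 3 peaks called by limma are squares below -1.5, at Cyp2b10 and Cyp2e1, and peaks called only by edgeR or listed only in the authors' table are diamonds on both sides of 0.

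Cyp2e1, which oxidises ethanol, acetone and acetaminophen and is read mainly by pericentral hepatocytes, had the clearest change of any P450 gene. A peak in its last intron (intron 8 of 8, chr7:147960035-147960663, centred 10618 bases after the start) had 10.7, 6.38 and 6.8 RPKM in refed livers, against 38, 28.3 and 27.2 RPKM in fasted livers. Every refed value was below every fasted value. The peak averaged 7.94 ± 2.36 RPKM in refed livers and 31.2 ± 5.96 RPKM in fasted livers (SD, n = 3 each). Its signal fell in refed livers with a log2 change of -1.99 (SE 0.28; adjusted p = 0.00651 by limma). These levels rest on 28, 13 and 20 reads in refed livers and 116, 57 and 70 reads in fasted livers. The edgeR test gave a log2 change of -1.97 with an adjusted p of 3.95e-05. It remained called when any 1 of the 6 libraries was left out, with log2 changes from -2.23 to -1.84 and limma adjusted p from 0.00221 to 0.029. The call was lost under quantile normalization (adjusted p = 0.0608) and without the intensity trend (adjusted p = 0.0691), 2 settings under which limma called no P450 peak.

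A second peak lay at the 3′ end of Cyp2e1, at the annotated transcription termination site (chr7:147961025-147961283, 11423 bases after the start). It had 9.24, 4.77 and 9.08 RPKM in refed livers, against 43, 22.9 and 18.9 RPKM in fasted livers. The groups did not overlap, and fasted replicate 1 was the highest by a wide margin. The log2 change was -1.85 (SE 0.36; adjusted p = 0.0294 by limma), and the call was kept in 2 of the 6 fits that left out 1 library. Without refed replicate 7, refed replicate 8, fasted replicate 1 or fasted replicate 4 the limma adjusted p was 0.0641, 0.0677, 0.0794 and 0.0544 in turn. The third peak, in intron 2 of 8 (chr7:147954850-147955056), had 11.6, 2.98 and 10.3 RPKM in refed livers, against 35.9, 18.1 and 22.5 RPKM in fasted livers. It rests on 10, 2 and 10 reads in refed livers and 36, 12 and 19 reads in fasted livers, so the low value of refed replicate 7 is 2 reads. It did not pass the limma threshold (log2 change -1.78, SE 0.46, limma adjusted p = 0.0799) and did pass that of edgeR (adjusted p = 0.0237).

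No difference was detected at the Cyp2e1 promoter. Its peak (chr7:147949202-147949769, centred 246 bases before the start) had 25.3, 31.5 and 23.3 RPKM in refed livers, against 28.3, 22 and 28 RPKM in fasted livers. The groups overlapped, with a log2 change of 0.03 (SE 0.18; adjusted p = 0.999 by limma). Relative to the promoter peak of the same library, per length, the last-intron peak stood at log2 ratios of -1.25, -2.30 and -1.78 in refed livers and of 0.43, 0.36 and -0.04 in fasted livers. It was thus below the promoter in each refed liver and near it in each fasted liver. The 3 upstream peaks, 7184, 14954 and 15358 bases before the start, had log2 changes of -0.14, -0.54 and 0.04, and none was called. The summed level of the pericentral markers other than P450 genes was higher in refed livers (872 to 940 RPKM against 837 to 853 RPKM in fasted livers), the opposite direction to the Cyp2e1 gene body; its part in the result was not tested.

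**Figure D2:**
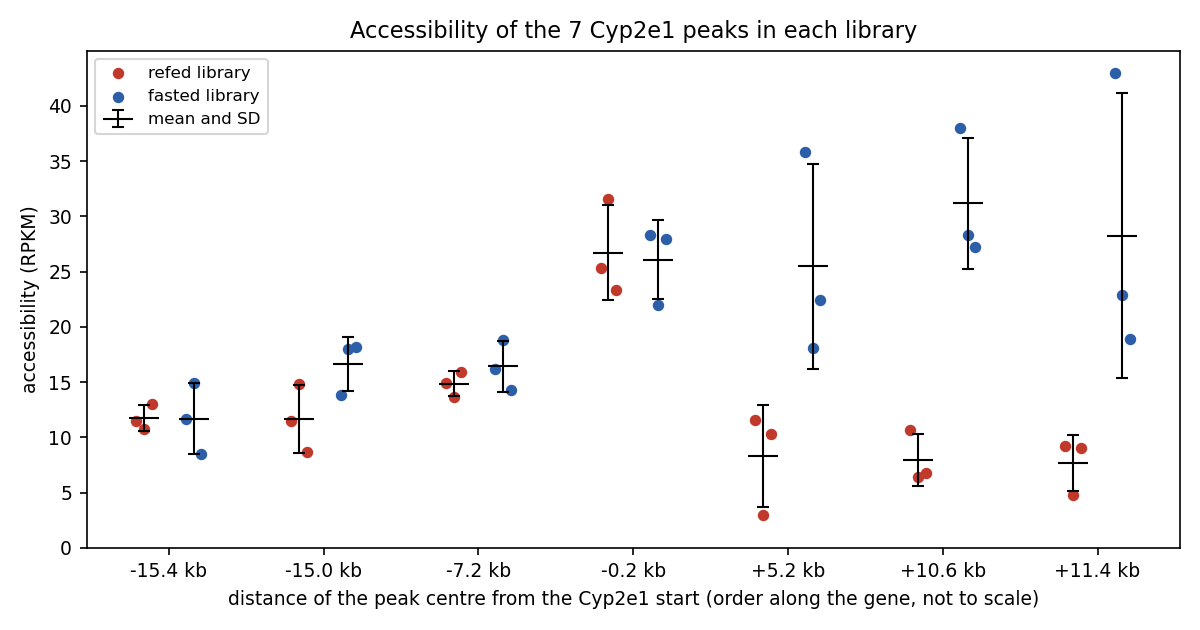
Accessibility (RPKM) of the 7 Cyp2e1 peaks in each refed (red, left) and fasted (blue, right) library, in order along the gene, with mean and SD of 3 libraries. The 3 peaks at 5.2, 10.6 and 11.4 kb after the start lie at 2.98 to 11.6 RPKM in refed livers and 18.1 to 43.0 RPKM in fasted livers, while the groups overlap at 4 peaks from the promoter upstream.

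Cyp2b10, the main phenobarbital-inducible P450 of mouse liver and a target of the receptor CAR, had the third called peak. It was intergenic, 9661 bases upstream of the start (chr7:26672808-26673224), with 5.17, 7.4 and 6.66 RPKM in refed livers, against 16.3, 23.9 and 15.3 RPKM in fasted livers. All 3 refed values were under the lowest fasted value, on 9, 10 and 13 reads in refed livers and 33, 32 and 26 reads in fasted livers. The peak averaged 6.41 ± 1.14 RPKM in refed livers and 18.5 ± 4.74 RPKM in fasted livers (SD, n = 3 each), and its limma adjusted p of 0.0499 (log2 change -1.52, SE 0.34) was just inside the threshold. It was not called in any of the 6 fits that left out 1 library (limma adjusted p from 0.0679 to 0.135), and was called by edgeR (adjusted p = 0.00699) and DESeq2 (adjusted p = 0.032). The Cyp2b10 promoter peak had 7.89, 18.7 and 14.1 RPKM in refed livers, against 13.6, 14.6 and 14.8 RPKM in fasted livers, and refed values lay on both sides of the fasted ones (log2 change -0.17, SE 0.33, limma adjusted p = 0.914).

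Cyp2b10 is part of the large array on chromosome 7 that also holds the Cyp2a, Cyp2f, Cyp2g, Cyp2s and Cyp2t genes, with 61 peaks, 27 above 0, of which 1 had no read, and 34 below. At the 3′ end of Cyp2a5, the coumarin hydroxylase, a peak (chr7:27628417-27629385) had 5.44, 6.69 and 5.07 RPKM in refed livers, against 13.4, 7.73 and 11.6 RPKM in fasted livers. The groups did not overlap, and the change passed edgeR (adjusted p = 0.0314) but not limma (log2 change -0.90, SE 0.40, limma adjusted p = 0.32). Cyp2a4, a close copy of Cyp2a5 that hydroxylates testosterone and is read mainly in females, had a low peak at its own 3′ end (chr7:27100807-27101006), with 3.59, 1.54 and 3.21 RPKM in refed livers, against 10.3, 6.24 and 7.34 RPKM in fasted livers; it rests on 1 to 10 reads and was not called (log2 change -1.58, SE 0.51, limma adjusted p = 0.159). Only reads with a unique place were kept in the deposited values, so sequence shared by these copies can be undercounted. The highest peak of the array was one named for Cyp2t4 (chr7:27944798-27945319, 22.3 RPKM in refed and 28.2 RPKM in fasted livers), which lies in an intron of Egln2, a gene of oxygen sensing. The 6 peaks of Cyp2f2, an enzyme of periportal hepatocytes and lung that oxidises naphthalene, had log2 changes from -0.11 to 0.91, none with an unadjusted p under 0.05.

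Peaks at the 3′ ends of P450 transcripts were few. There were 5 P450 peaks, by nearest start, annotated to the termination site of a P450 transcript. Of these 5, 4 had a log2 change below 0 (at Cyp2e1, Cyp3a25, Cyp2a4 and Cyp2a5), 1 was called by limma and 2 by edgeR. Their median log2 change was -1.58, against -0.04 over the 1080 termination-site peaks of all genes, of which 16 were called higher and 17 lower by limma. These 5 were picked out after their values were seen, so the count is a description. They leave out 2 peaks at P450 transcript ends that are named for a neighbour, Axl or Cpn1. Those peaks had log2 changes of 0.10 and -0.37 in turn, and neither was called by limma or edgeR.

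The Cyp3a array on chromosome 5 had 42 peaks at 9 genes, and neighbouring genes lay on opposite sides of 0. Cyp3a enzymes clear a wide range of drugs and steroids, and Cyp3a11 is the PXR target most used as its readout. Near Cyp3a25, 6 of 8 peaks were below 0. The peak with the smallest p was intergenic, 33824 bases after the start, beyond the 3′ end (chr5:146786862-146787876), with 3.07, 4.87 and 3.79 RPKM in refed livers, against 16.5, 15.4 and 8.68 RPKM in fasted livers. Each refed value was under each fasted value. It missed the limma threshold (log2 change -1.76, SE 0.44, limma adjusted p = 0.0693) and passed edgeR (adjusted p = 0.000679) and DESeq2 (adjusted p = 0.000207). A peak in an intron of Cyp3a25 (chr5:146810686-146811651) had 2.73, 5.11 and 5.09 RPKM in refed livers, against 21.1, 7.75 and 10.6 RPKM in fasted livers. Here too the groups did not overlap, with fasted replicate 1 highest (log2 change -1.54, SE 0.48, limma adjusted p = 0.147, edgeR adjusted p = 0.0051). The Cyp3a25 promoter peak had 8.46, 11.9 and 17.7 RPKM in refed livers, against 17.7, 13.9 and 15.4 RPKM in fasted livers and the groups overlapped. The most accessible peak of the array, 11737 bases upstream of Cyp3a25 (chr5:146832687-146833176), averaged 19.2 ± 0.586 RPKM in refed livers and 21.7 ± 0.675 RPKM in fasted livers (SD, n = 3 each) and was not called (log2 change -0.17, SE 0.19, limma adjusted p = 0.753).

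Cyp3a41a, Cyp3a41b and Cyp3a44, close copies read mainly in female liver, lay on the other side of 0, in these male mice at low levels. Of their 16 peaks 15 had a log2 change above 0, at a median of 6 reads per library, and none was called by limma. An intron peak of Cyp3a44 (chr5:146611763-146612233) had 16.3, 17 and 18.1 RPKM in refed livers, against 7.0, 9.93 and 7.27 RPKM in fasted livers. The groups did not overlap, and edgeR called it higher (adjusted p = 0.0212) where limma did not (log2 change 1.10, SE 0.31, limma adjusted p = 0.101). An intron peak of Cyp3a41a (chr5:146525954-146526397), also in the authors' table, had 6.47, 8.34 and 6.26 RPKM in refed livers, against 3.25, 2.11 and 1.65 RPKM in fasted livers. It was higher in each refed liver than in any fasted one and was not called here (log2 change 1.63, SE 0.49, limma adjusted p = 0.131, edgeR adjusted p = 0.0536). The highest log2 change of any P450 peak, 2.07 at an intergenic Cyp3a41a peak (chr5:146498255-146498687), rests on 2, 5 and 6 reads in refed livers and 0, 0 and 1 reads in fasted livers and was not called (limma adjusted p = 0.0619); without refed replicate 5 it was 2.59, with an adjusted p of 0.0376. The Cyp3a41a name stands at 2 places in the mm9 annotation. With only uniquely placed reads kept, sequence shared by the Cyp3a41a, Cyp3a41b and Cyp3a44 copies can be undercounted. Cyp3a11 itself had 6 peaks with 4 below 0, and its promoter peak had 14.6, 11.3 and 16.9 RPKM in refed livers, against 17.6, 13.3 and 10.4 RPKM in fasted livers (log2 change 0.06, SE 0.30, limma adjusted p = 0.999).

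**Figure D3:**
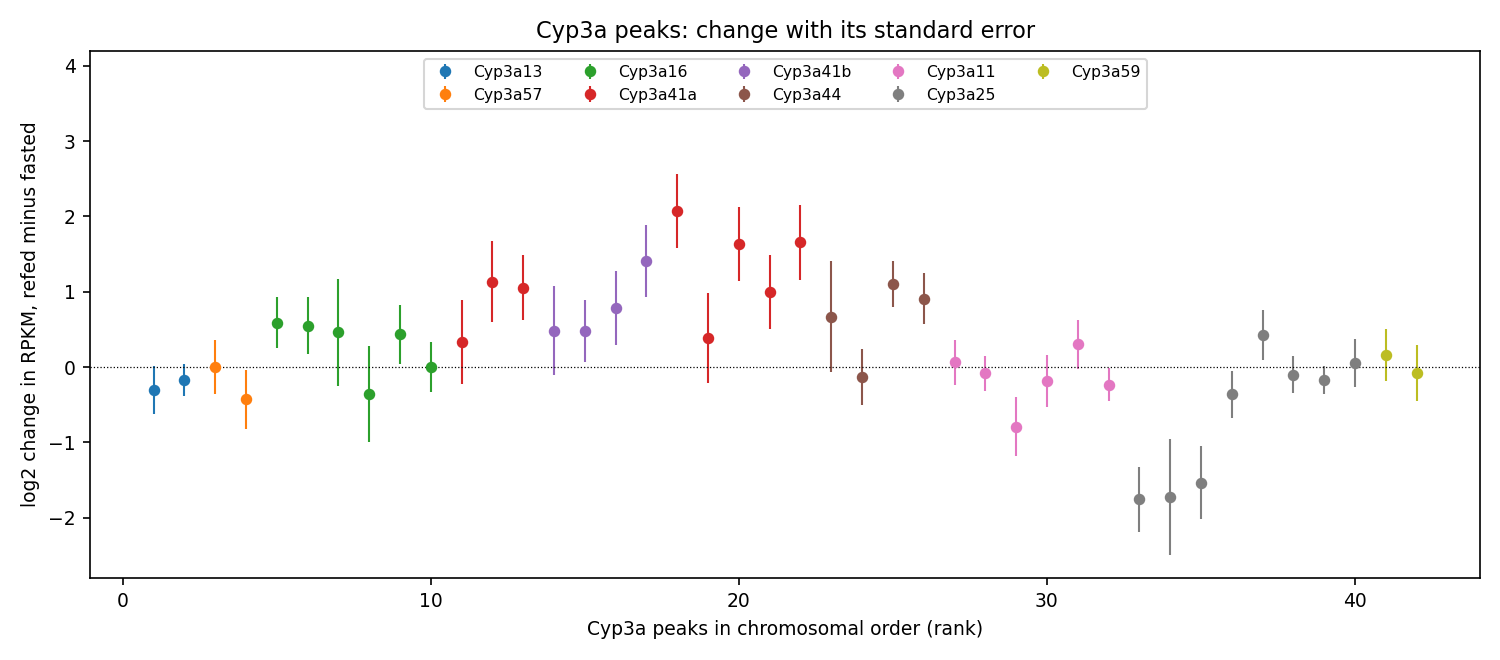
Log2 change in RPKM (refed minus fasted, points) with limma's standard error (bars) at the 42 Cyp3a peaks, ranked by position on chromosome 5 and coloured by gene. The 16 peaks of Cyp3a41a, Cyp3a41b and Cyp3a44 lie above 0 but for 1, and 3 Cyp3a25 peaks lie below -1.5; none was called by limma.

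The Cyp2c array on chromosome 19 had 36 peaks, 27 of them above 0, of which 3 had no read in any library. It includes Cyp2c70, which makes the muricholic acids of mouse bile, and Cyp2c44, which makes epoxides of arachidonic acid. In the first intron of Cyp2c67 (chr19:39721940-39722404) a peak had 14.4, 21.2 and 17 RPKM in refed livers, against 5.32, 8.72 and 6.31 RPKM in fasted livers. The lowest refed liver was well above the highest fasted one, on 28, 32 and 37 reads in refed livers and 12, 13 and 12 reads in fasted livers. edgeR called it higher (adjusted p = 0.00924), while limma did not (log2 change 1.38, SE 0.34, limma adjusted p = 0.0692). The highest peak of the array, 39624 bases upstream of Cyp2c70 (chr19:40301218-40301582, 22.6 RPKM in refed and 20.8 RPKM in fasted livers), lies in intron 5 of 6 of Pdlim1 and was not called (limma adjusted p = 0.882).

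All 6 peaks named for Cyp2c29, a CAR target of pericentral hepatocytes, had log2 changes above 0, 1 of them empty in all libraries. Of these, 5 lie in repeats within introns of the transcribed pseudogene Cyp2c53-ps. The lowest p among them was at chr19:39344376-39344641, with 5, 3 and 3 reads in refed livers and 1, 0 and 1 reads in fasted livers (log2 change 1.88, SE 0.48, limma adjusted p = 0.0733). The Cyp2c29 promoter peak (chr19:39361464-39361717) had 13.2, 21.9 and 17.7 RPKM in refed livers, against 10.6, 13.5 and 6.74 RPKM in fasted livers. The means were 17.6 ± 4.34 RPKM in refed livers and 10.3 ± 3.39 RPKM in fasted livers (SD, n = 3 each), the values overlapped, and the peak was not called (log2 change 0.80, SE 0.33, limma adjusted p = 0.28).

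Among the 37 Cyp2d peaks on chromosome 15, 21 were above 0 and 16 below. This subfamily includes Cyp2d22, often set beside human CYP2D6, and Cyp2d9, a steroid hydroxylase read mainly in male liver. An intergenic peak 1023 bases upstream of Cyp2d40 (chr15:82595393-82595758) had 19, 27.8 and 23.9 RPKM in refed livers, against 9.58, 14.5 and 12 RPKM in fasted livers. The groups were apart, with edgeR calling it higher (adjusted p = 0.0436) and limma not (log2 change 0.97, SE 0.26, limma adjusted p = 0.0833). The Cyp2d22 start carried the highest Cyp2d peak (chr15:82209874-82211157), with 39, 58.4 and 45.9 RPKM in refed livers, against 45.6, 50.3 and 46.3 RPKM in fasted livers. Its groups overlapped (log2 change -0.01, SE 0.14, limma adjusted p = 0.999). The 6 peaks of Cyp2d12 were all above 0, from 0.00 to 1.40, with none called by limma; 3 were too low for the edgeR filter and the other 3 were not called by edgeR.

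Cyp2j enzymes turn arachidonic acid into epoxides. The promoter peak of Cyp2j9 on chromosome 4 (chr4:96257849-96258760) had 19.7, 24.7 and 19.7 RPKM in refed livers, against 14.5, 15.1 and 12.9 RPKM in fasted livers, the 1 P450 promoter in the authors' table, where its log2 fold change is 0.58. The refed values were all above the fasted ones, and neither limma (log2 change 0.59, SE 0.22, limma adjusted p = 0.233) nor edgeR here (adjusted p = 0.0734) called it. A second Cyp2j9 peak, 31261 bases upstream (chr4:96288934-96289940), had 23.5, 26.7 and 23.3 RPKM in refed livers, against 20.1, 17.3 and 13.8 RPKM in fasted livers and was not called either (log2 change 0.53, SE 0.21, limma adjusted p = 0.241). The highest Cyp2j peak was the Cyp2j6 start (chr4:96219864-96220566, 36.9 RPKM in refed and 36.5 RPKM in fasted livers, log2 change 0.03).

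Cyp2u1, a fatty acid hydroxylase found in many tissues, had a peak 14712 bases upstream of its start on chromosome 3 (chr3:131020397-131021318), with 17.7, 22.1 and 20.9 RPKM in refed livers, against 4.47, 11.8 and 9.55 RPKM in fasted livers. It was the highest-count P450 peak that edgeR called higher, on 68, 66 and 90 reads in refed livers and 20, 35 and 36 reads in fasted livers (edgeR adjusted p = 0.00503, DESeq2 adjusted p = 0.00539). Limma did not call it (log2 change 1.34, SE 0.36, limma adjusted p = 0.0961), and fasted replicate 1 was the lowest. At the Cyp2u1 start the peak averaged 46.8 ± 1.92 RPKM in refed livers and 43.4 ± 3.71 RPKM in fasted livers (SD, n = 3 each), with overlapping values. Cyp2w1 had 2 peaks, an intron peak (chr5:139831351-139831650) with 10.4, 15.4 and 17.8 RPKM in refed livers, against 22.7, 25 and 24.5 RPKM in fasted livers that was not called (log2 change -0.76, SE 0.24, limma adjusted p = 0.146), and one at the end of the neighbouring gene 3110082I17Rik (chr5:139834583-139835480) with a log2 change of 0.00.

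**Figure D4:**
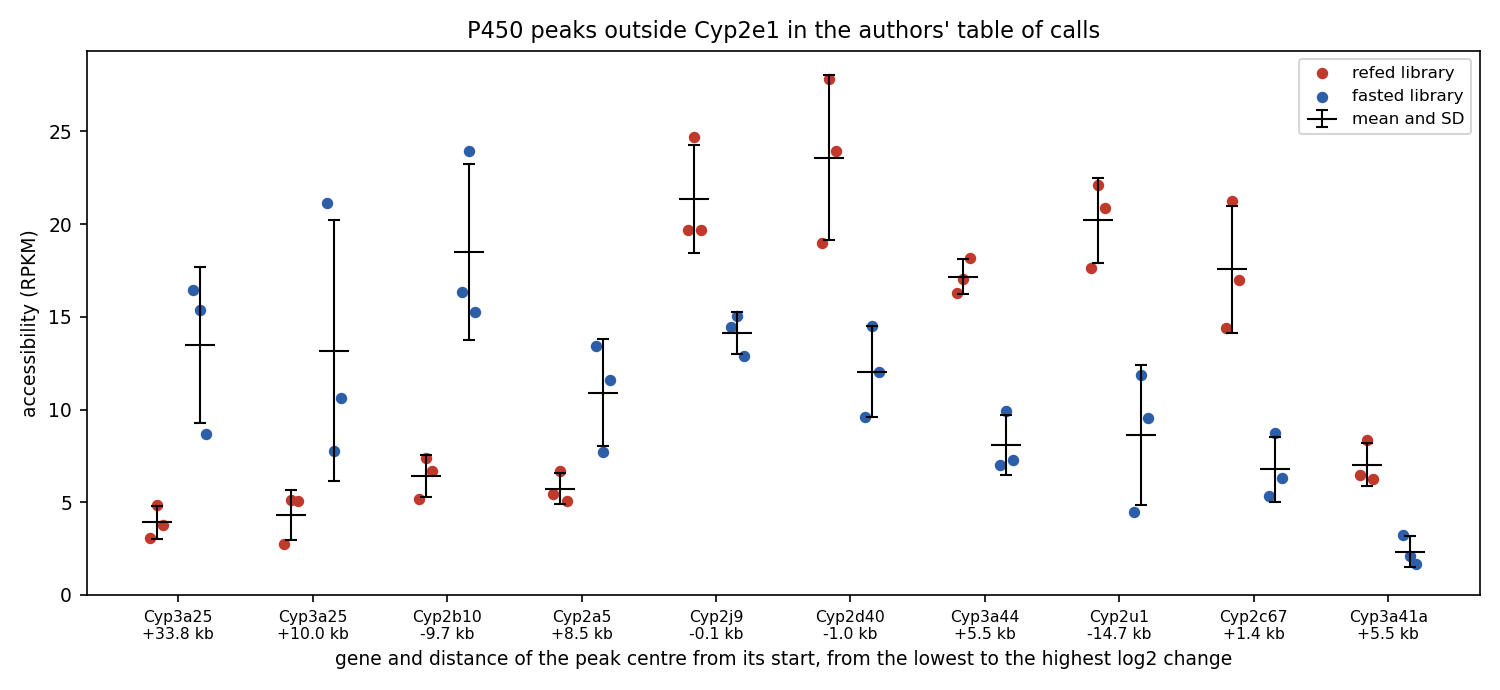
Accessibility (RPKM) in each refed (red, left) and fasted (blue, right) library at the 10 P450 peaks outside Cyp2e1 that the authors' table of edgeR calls lists, ordered by log2 change, with mean and SD of 3 libraries. In each of them the 3 refed values lie on one side of the 3 fasted values, as at 19.0% of all peaks. These peaks were listed for a difference between the same libraries, so this separation is no further support. Limma called 1, at Cyp2b10.

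The Cyp1 genes, which AHR induces and which act on polycyclic aromatics and aromatic amines, leaned towards lower values in refed livers without passing the test. Of their 7 peaks 6 were below 0, and 0 were called by limma or edgeR, with 2 at an unadjusted limma p under 0.05. The Cyp1a2 promoter peak on chromosome 9 (chr9:57531325-57531746) had 16.5, 11.7 and 11.1 RPKM in refed livers, against 27.8, 22.9 and 17.4 RPKM in fasted livers. The groups did not overlap, at 13.1 ± 2.92 RPKM in refed livers and 22.7 ± 5.23 RPKM in fasted livers (SD, n = 3 each), and the change did not pass (log2 change -0.79, SE 0.26, limma adjusted p = 0.165, edgeR adjusted p = 0.0931). Cyp1a1, which runs the other way, had 2 peaks within 1 kb of an annotated mm9 start. Its RefSeq window in GRCm38.p6 (chr9:57697363-57697662) lies farther from that of Cyp1a2 (chr9:57683606-57683905) than the promoter peaks of these genes lie apart. The window searched for motifs can therefore belong to another Cyp1a1 start. The promoter peak nearest an annotated start (chr9:57535393-57535805) had 9.28, 15.7 and 10.9 RPKM in refed livers, against 15.5, 20.4 and 19.5 RPKM in fasted livers. These values overlapped by a small margin (log2 change -0.65, SE 0.28, limma adjusted p = 0.303). The highest Cyp1a peak, 13817 bases after the Cyp1a2 start (chr9:57517420-57517870), averaged 22.4 RPKM in refed and 26.9 RPKM in fasted livers, and the single Cyp1b1 peak, at its promoter (chr17:80114888-80115448), 18.4 RPKM in refed and 21.7 RPKM in fasted livers; neither was called.

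Promoters of P450 genes were less accessible than promoters in general. A peak centred within 1 kb of a start was found at 31 of 53 genes, 33 peaks in all, with a median of 17.9 RPKM against 35.2 RPKM over the 14565 such peaks of all genes. None of the 33 was called by limma or by edgeR. Of all such peaks limma called 0.487%, and edgeR 1.03% of those it tested, so no call among 33 is near these shares. Of the 33, 4 had an unadjusted limma p under 0.05 (Cyp1a1, Cyp1a2, Cyp2c29 and Cyp2j9), against 924 of the 14565. The log2 changes of the 33 ran from -0.79 at Cyp1a2 to 0.80 at Cyp2c29, with 17 below 0 and 16 above. The most accessible was Cyp2r1, the vitamin D 25-hydroxylase (chr7:121705955-121706937), whose start has the CG-rich sequence shown above, with 51.6, 70.0 and 64.6 RPKM in refed livers, against 54.3, 63.8 and 63 RPKM in fasted livers. Its groups overlapped (log2 change 0.03, SE 0.12). The least accessible was Cyp2a5 (chr7:27620139-27620544), with 8.26, 10.6 and 7.9 RPKM in refed livers, against 8.63, 10.8 and 7.23 RPKM in fasted livers. Between them, Cyp2d22, Cyp2u1, Cyp2j6, Cyp2j5 and Cyp2d9 were above 30 RPKM on average, and Cyp3a11, Cyp2b10 and Cyp2c70 between 13.9 and 14.5 RPKM.

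**Figure D5:**
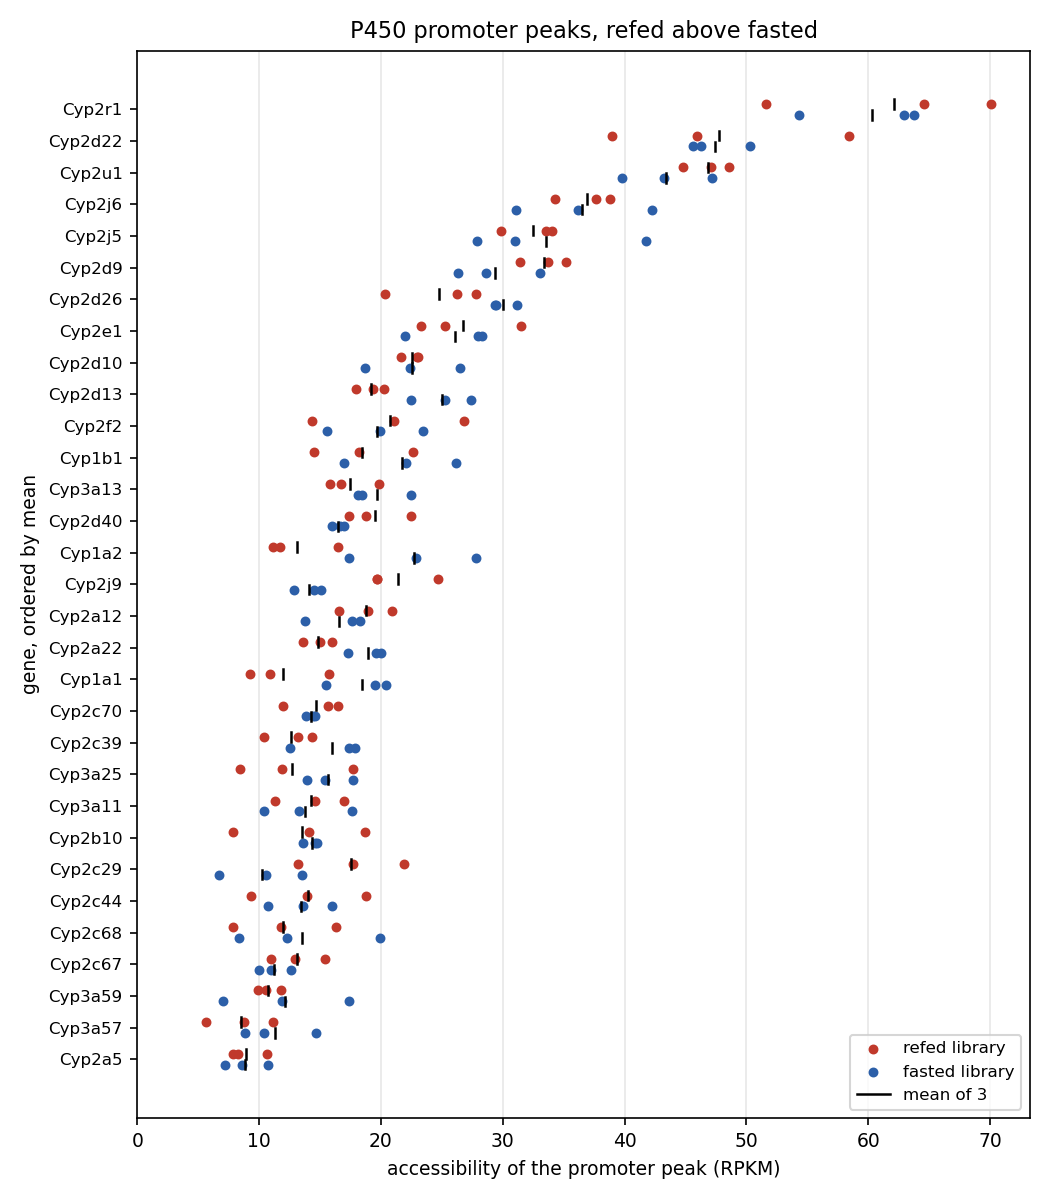
Accessibility (RPKM, horizontal axis) of the promoter peak nearest the start of each of the 31 P450 genes that have one, in each refed (red, upper row) and fasted (blue, lower row) library, with the mean of 3 as a tick. Genes are ordered by mean level, from Cyp2r1 at 61.2 RPKM to Cyp2a5 at 8.90 RPKM, and limma and edgeR called no promoter peak.

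Grouped by known role, the P450 peaks called by limma were in the pericentral list and the list of CAR and PXR targets. Of all peaks limma called 1.23%, edgeR called 4.01% of those it tested, and 14.5% had an unadjusted limma p under 0.05. The 26 peaks of pericentral genes had 13 above 0 and 13 below, and 1 of the 13 above 0 had no read. Of these peaks 2 were called lower by limma (7.69%) and 3 by edgeR (16.7% of the 18 it tested), all at Cyp2e1. The 26 peaks of CAR and PXR targets had 14 above 0, of which 2 had no read in any library, and 12 below. The Cyp2b10 peak was the 1 called lower, by limma (3.85%) and by edgeR (5.88% of the 17 it tested). The 40 peaks of female-biased genes had 29 above 0, including 1 at Cyp3a16 and 1 at Cyp2c39 with no read in any library, and a median of 0.41, with none called by limma, 1 called higher by edgeR, 9 at an unadjusted p under 0.05 and a median of 6 reads per library. Without refed replicate 7 this median log2 change was 0.05, without fasted replicate 3 it was 0.26, and it was 0.15 over peaks above the first quartile of mean level, 0.20 under quantile normalization and 0.25 on log2(RPKM + 1). The 13 peaks of the male-biased Cyp2d9 and Cyp2f2 had 8 above 0 and a median of 0.10, and the 11 peaks of arachidonic acid epoxygenases 8 above 0 and a median of 0.06; neither group had a peak called by limma or edgeR, and 0 and 2 peaks had an unadjusted p under 0.05. Both medians turned with 1 library left out, to -0.06 without fasted replicate 4 for the male-biased genes, and to -0.05 without refed replicate 7 and -0.01 without fasted replicate 3 for the epoxygenases. Beside these, 40273 of all 74076 peaks were above 0, 3733 of them with no read.

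Genes that supply P450 enzymes with electrons and haem, or that control their transcription, were listed apart from the P450 genes. All 28 had peaks, 274 in total, of which limma called 2 higher and 2 lower, or 1.46% against 1.23% of all peaks. edgeR called 5 higher and 3 lower, or 2.99% of the 268 it tested against 4.01% of all, so neither share stands far from the background. With 1 library left out, limma called 1 higher without refed replicate 7 or 8 and 2 otherwise, and called 1 lower without refed replicate 7 or fasted replicate 1 and 0 otherwise. Both higher calls were in introns of Cyb5r3, the reductase of cytochrome b5. The stronger (chr15:83000494-83000732) had 42.1, 47.8 and 40.2 RPKM in refed livers, against 15.5, 22.2 and 22.5 RPKM in fasted livers. Every refed value was above every fasted one (log2 change 1.13, SE 0.17, limma adjusted p = 0.00997). The other (chr15:82999360-82999611) averaged 42.2 ± 7.03 RPKM in refed livers and 22.8 ± 2.92 RPKM in fasted livers (SD, n = 3 each) (log2 change 0.88, SE 0.16, limma adjusted p = 0.0224).

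The lower calls were at Alas1, the first enzyme of haem synthesis, and Rxra, the partner receptor of CAR and PXR. The Alas1 peak, 15686 bases upstream (chr9:106165726-106166216), had 17.1, 15.1 and 14.8 RPKM in refed livers, against 34.4, 26.7 and 27.4 RPKM in fasted livers. All refed values were below all fasted ones (log2 change -0.91, SE 0.19, limma adjusted p = 0.0394), while the Alas1 promoter averaged 33.9 ± 4.28 RPKM in refed livers and 32.4 ± 4.1 RPKM in fasted livers (SD, n = 3 each) (log2 change 0.06, SE 0.15, limma adjusted p = 0.941). The Rxra intron peak (chr2:27535193-27535407) averaged 31.5 ± 4.6 RPKM in refed livers and 48.6 ± 2.4 RPKM in fasted livers (SD, n = 3 each) and fell by limma (log2 change -0.64, SE 0.13, limma adjusted p = 0.0357) but not by edgeR (adjusted p = 0.138). At Por, a peak 6208 bases upstream (chr5:136158359-136159256) had 11.7, 11.3 and 9.52 RPKM in refed livers, against 23.4, 22.2 and 20.2 RPKM in fasted livers. It missed the limma threshold (log2 change -1.02, SE 0.24, limma adjusted p = 0.0616) and passed edgeR (adjusted p = 0.00266), whereas the Por promoter averaged 86.8 ± 0.587 RPKM in refed livers and 87.7 ± 3.75 RPKM in fasted livers (SD, n = 3 each). The promoter peak of Ahr averaged 51 ± 3.1 RPKM in refed livers and 60.9 ± 1.44 RPKM in fasted livers (SD, n = 3 each) and was not called (log2 change -0.26, SE 0.09, limma adjusted p = 0.197). All 3 peaks of Nr1i3, which encodes CAR, had log2 changes from -0.45 to -0.32, and the 10 peaks of Nr1i2, which encodes PXR, from -0.45 to 0.30, with none called by limma or edgeR.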

How the data were processed

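ATAC-seq was read from the deposited table of 6 liver libraries, 3 refed and 3 fasted, grouped by the titles in the labels. The submitters' processing notes name Bowtie2 and the mm9 genome together with MACS2, HOMER, DESeq2, cutadapt, SAMtools and FastQC. Tool versions, settings and an offset shift of the transposase cuts were not given in the sources used here. Duplicates, per the file headers, were removed and unique reads kept over 1 merged peak list annotated with HOMER. The authors' RPKM values are scaled to peak length in kilobases and to each library's reads in listed peaks, and the log2 columns were deposited beside them. This scaling hides any difference between libraries in how many reads fall in peaks. An empty peak carries the value of 0.9 reads, worked out from the values. The authors' deposited edgeR table gives read counts, p-values and log2 fold changes for 3314 peaks under a corrected p of 0.05.

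The steps of the RPKM values gave back whole reads (tolerance 0.01 reads): 100% of values were whole or empty, and they equalled the deposited counts at all 3314 peaks. The main test was limma 3.58.1 in R 4.3.3 (lmFit, eBayes with an intensity trend) on log2 RPKM of all 74076 peaks, refed minus fasted, with no filter, pseudocount or covariate and Benjamini-Hochberg adjustment over all peaks. It was also run on simulated reads, and the outcome is not given here. Changes were simulated only at peaks with a mean of at least 10 reads, so changes at lower peaks were not covered. edgeR 4.0.16 (quasi-likelihood, TMM, filterByExpr, 61067 peaks kept) and DESeq2 1.42.0 were run on the recovered reads as alternatives, the second without an adjusted p at 15973 peaks.

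Genes follow the nearest start in the file; the annotated transcript is named where it is another gene's. Peak coordinates are 1-based mm9. Promoter sequences and motif searches used RefSeq windows of GRCm38.p6, with both strands searched and 44 of 53 genes matched. The peaks named are those called by limma, those in the authors' table, the highest and the smallest-p peak of each cluster and the promoter peaks; others named were chosen after their values were seen. The P450 genes, role lists, partner list and marker lists were chosen with earlier results of these data known, and support nothing by their choice.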

Additional observations from a re-analysis of the deposited data

How the results depend on the processing

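No paired analysis was possible because the groups share no replicate number. The number of P450 peaks called lower, 3 by limma, was 5 with each library centred on its median, 0 under quantile normalization, 0 without the intensity trend, 14 with library weights, 7 by edgeR with its filter and 7 without, 5 by DESeq2 and 1 when only peaks within 10 kb of the start were counted. The number called higher, 0 by limma, was 1 on log2(RPKM + 1), 19 with library weights, 4 by edgeR with its filter and 4 without, and 1 by DESeq2. With 1 library left out, 1 to 3 were lower and 0 to 1 higher. Promoter calls were 2 higher and 2 lower with library weights and 0 under the other alternatives. Partner calls, 2 higher and 2 lower, were 0 and 0 under quantile normalization and without the intensity trend, 21 and 18 with library weights, 0 and 1 by DESeq2, and 5 higher by edgeR with its filter and 5 without; with 1 library left out, 1 to 2 were higher and 0 to 1 lower. The cause of these moves was not tested. The shares of all peaks called under alternatives other than edgeR with its filter are not given here. No named peak that was called in any setting changed sign. The median over P450 peaks ran from -0.05 to 0.08 across the alternatives, crossing 0. The median was 19 to 33 reads per peak and 66 P450 peaks had under 10 reads; the smallest change that this depth can show was not measured.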

Other observations

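Peaks in annotated repeats made up 84 of the 211 P450 peaks, and 60 of these 84 had a log2 change above 0, against 13354 of 19607 repeat peaks of the whole table. These counts include peaks with no read in any library, 6 at P450 genes and 3026 in the whole table; among repeat peaks with reads, 54 of 78 at P450 genes and 10328 of 16581 in all were above 0. They had a median level of 5.10 RPKM, against 14.5 RPKM for the 127 P450 peaks outside repeats, of which 58 were above 0 and 69 below. None of the P450 peaks in repeats was called by limma, against 0.847% of all repeat peaks. edgeR called 3 higher and 2 lower of the 39 it tested (12.8%, against 4.65% of all repeat peaks tested). An unadjusted limma p under 0.05 was found at 17 of the 84, against 2582 of the 19607.

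2 further peaks lie at the end of a P450 transcript but are named for a neighbour whose start is nearer: one at the end of Cyp2s1, named for Axl, with a log2 change of 0.10 (SE 0.28; adjusted p = 0.967 by limma), and one at the end of Cyp2c44, named for Cpn1, with -0.37 (SE 0.25; adjusted p = 0.56 by limma). Neither is among the 211.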
